A study of Mus musculus with 63 samples.

Results

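Kcnj3, Kcnj6, Kcnj9, Kcnma1, Kcnmb4 and Mpdz are 6 genes linked to the response of neurons to ethanol, and their RNA was followed across 63 libraries of mouse dorsal hippocampus. The genes were chosen by symbol. They are 6 of 55401 genes in the deposited count table, and all 6 were among the 19974 genes that passed the filter on low counts. The mice were adolescents of the inbred strains DBA/2J (32 libraries) and C57BL/6J (31 libraries), 31 libraries from males and 32 from females. They had received ethanol at 1.5 g/kg (32 libraries) or saline (31 libraries) and were fear conditioned (FC, 31 libraries) or not (noFC, 32 libraries). These factors made 16 groups of 4 libraries, except C57BL/6J males given saline and fear conditioned, with 3. The labels name no other allele or agent and give neither an exact age nor the time from injection to dissection. They do not say that each library came from a separate animal, so every error below covers the spread between libraries and nothing more.

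Kcnj3, Kcnj6 and Kcnj9 encode GIRK1, GIRK2 and GIRK3, the subunits that assemble into the G-protein-gated inward rectifying potassium channels of hippocampal neurons. These channels open when a Gi/o-coupled receptor releases G protein beta-gamma subunits, and ethanol can open them directly. Kcnma1 encodes the pore of the BK channel, which opens on depolarisation and a rise in intracellular calcium, and Kcnmb4 encodes its beta 4 subunit, common in brain, which alters BK gating and ethanol sensitivity. Mpdz encodes a scaffold protein with many PDZ domains and is a candidate gene of a mouse chromosome 4 locus for alcohol withdrawal. Kcnj9 lies in a distal chromosome 1 interval that mouse crosses have linked to withdrawal from sedatives.

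The coding stretch around the pore's selectivity filter shows how the channel genes relate, and the capitals mark the 5 codons of the filter signature. Each line holds 75 bases of the coding strand, read from GENCODE M21 transcripts on GRCm38. The stretches lie at chr2:55437597-55437671 (plus strand) for Kcnj3, chr16:94832747-94832821 (minus strand) for Kcnj6, chr1:172326154-172326228 (minus strand) for Kcnj9 and chr14:23528383-23528457 (minus strand) for Kcnma1.
Kcnj3: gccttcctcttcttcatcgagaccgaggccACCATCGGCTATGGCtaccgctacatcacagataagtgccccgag
Kcnj6: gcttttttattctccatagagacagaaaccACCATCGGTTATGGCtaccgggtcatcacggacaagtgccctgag
Kcnj9: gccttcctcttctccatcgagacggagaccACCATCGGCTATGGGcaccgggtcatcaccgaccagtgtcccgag
Kcnma1: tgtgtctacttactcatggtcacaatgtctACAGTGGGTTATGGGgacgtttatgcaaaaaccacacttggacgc
Of the 75 positions, Kcnj3 and Kcnj9 shared 63, Kcnj6 and Kcnj9 61, and Kcnj3 and Kcnj6 59. Kcnma1 shared 31 with Kcnj3 and 29 with each of Kcnj6 and Kcnj9. The GIRK genes thus share most bases here, yet no read-length window of 75 bases in the main transcript of any of the 6 genes occurred in a transcript of a paralogue. The windows that another gene shared all lay opposite an antisense gene. They made up 69.8% of the windows of Kcnmb4, 28.7% of Kcnj3, 13.5% of Kcnj6, 7.84% of Kcnma1, 2.59% of Kcnj9 and 0 of Mpdz.

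The Kcnj6 gene ends in more than one way, and its main transcripts are shown because only 1 of them ends in a motif that PDZ proteins bind. The capitals mark the bases after the point where the reading frames part, following 1241 shared coding bases. On the minus strand of chromosome 16, Kcnj6-201 uses chr16:94762398-94762422 and then chr16:94749266-94749270, and Kcnj6-202 uses chr16:94762360-94762422.
Kcnj6-201: ccggaagaactgacggagaggaatggGTGA
Kcnj6-202: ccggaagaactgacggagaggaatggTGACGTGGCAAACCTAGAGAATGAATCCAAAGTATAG
Kcnj6-202 adds 11 codons, and its end is the motif that the PDZ protein SNX27, a sorting factor, is known to bind. Kcnj6-201 took 57.2% ± 2.28 of the gene's transcript counts in DBA/2J libraries (SD, n = 32) and 58.9% ± 2.44 in C57BL/6J libraries (SD, n = 31). Kcnj6-202 took 42.5% ± 2.28 in DBA/2J and 40.9% ± 2.43 in C57BL/6J. These shares differed between the strains by less than 1 SD, and limma's transcript usage test did not call the gene (adjusted p = 0.35).

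Libraries held between 21027659 and 61631742 gene counts (median 26379948), which were scaled to a common library total as CPM with TMM factors. No library was a copy of another. Markers of CA1, CA2, CA3 and dentate granule cells were present in every library, with lowest sums of 346.3, 160.6, 144.9 and 265.6 CPM in DBA/2J and 361.2, 173.5, 172.7 and 361.1 CPM in C57BL/6J. Markers of neighbouring tissue were also present. The 6 choroid plexus markers summed to between 30.5 and 10660 CPM in DBA/2J and between 38.75 and 11890 CPM in C57BL/6J. In bulk tissue, fewer cells of a type and less RNA per cell cannot be told apart. Each title carries a number and a letter that the labels leave unexplained, and libraries with the lower 8 and the upper 8 numbers are called here the first round and the second round. Within a round each letter stood for 1 drug, and across rounds for 1 conditioning state, so the letter cannot be told apart from drug within a round, nor from conditioning at all.

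Per base of exon, Kcnj3 was the most abundant of the 6 genes and Mpdz the least. Over all 63 libraries the medians, in counts per kilobase of exon scaled to library size (RPKM), were 31.7 for Kcnj3, 16.8 for Kcnj9, 15.2 for Kcnma1, 9.42 for Kcnmb4, 6.90 for Kcnj6 and 5.55 for Mpdz. Within a library this order held for each pair of neighbours in 54 to 63 of 63 libraries, although most ranges overlapped between libraries. The closest levels were those of Kcnj6 and Mpdz, in this order in 54 of 63 libraries, and those of Kcnj9 and Kcnma1, in this order in 57 of 63. On transcript lengths (TPM) Kcnj3 again stood highest, at 72.3, and Mpdz lowest, at 32.4. Kcnmb4 then moved up to the second place, at 51.7 TPM, and Kcnj9 (40.7 TPM) lay above Kcnj6 (39.8 TPM) in 32 of 63 libraries, so those levels did not differ beyond their spread. Counts per library were ample for every gene, from a median of 834 for Kcnmb4 (616 to 1838) to a median of 6878 for Kcnma1 (4972 to 14503). Kcnj5, the remaining GIRK subunit and best known from heart, was close to absent at a mean of 0.068 RPKM.

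The strain comparison asked how DBA/2J differs from C57BL/6J with sex, drug and conditioning averaged. Of the 6 genes, 3 were called at an adjusted p under 0.05 in edgeR's quasi-likelihood test, Mpdz and Kcnj3 lower and Kcnmb4 higher in DBA/2J. Of all genes tested, 50.0% were called, so 3 of 6 was the share found across the genome. Among the 6 genes Mpdz differed most, with a strain difference larger than that of 76.4% of the genes tested. Kcnj3 (47.6%) and Kcnmb4 (46.5%) lay in the middle of the genes. Over all genes called for strain, the median size of the log2 difference was 0.21. Kcnj9, Kcnma1 and Kcnj6 were not called. Log2 differences between strains subtract C57BL/6J from DBA/2J, and their median over all genes was 0.005.

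Mpdz, the scaffold, was lower in DBA/2J. It spanned 51.72 to 71.92 CPM with a median of 64.02 CPM in DBA/2J, against 66.38 to 87.31 CPM with a median of 75.62 CPM in C57BL/6J. The groups barely overlapped: 23 of 32 DBA/2J libraries lay below every C57BL/6J library, and all 32 lay below the C57BL/6J median. The means were 64.3 ± 4.02 CPM in DBA/2J (SD, n = 32) and 77.4 ± 5.85 CPM in C57BL/6J (SD, n = 31). The log2 difference was -0.27 (SE 0.03, 95% interval -0.32 to -0.22, edgeR adjusted p = 1.2e-13), or -17.0% in DBA/2J. Mpdz was lower in DBA/2J in all 8 combinations of sex, conditioning and drug, with log2 ratios of means from -0.34 to -0.17. Mpdz runs from 81278500 to 81442815 on the minus strand of chromosome 4 (ENSMUSG00000028402).

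**Figure D1:**
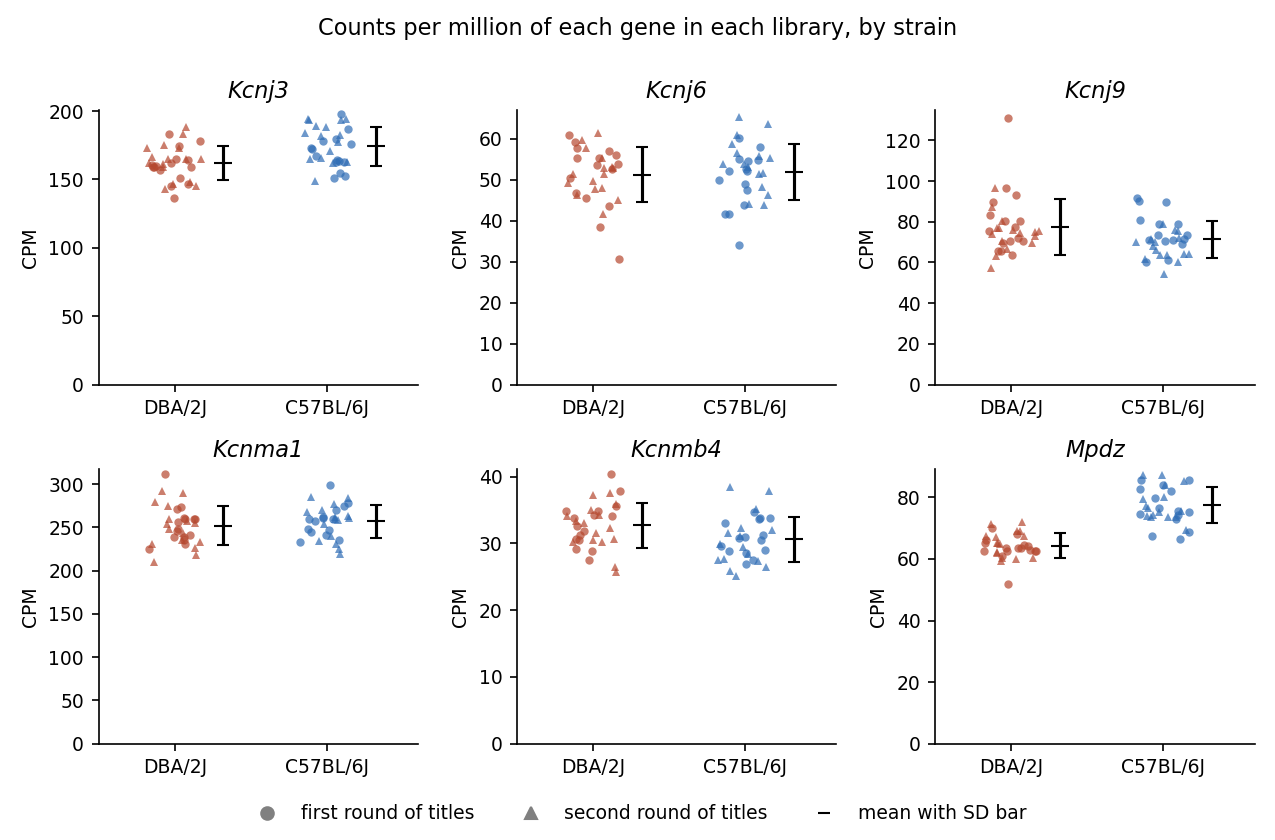
CPM of each of the 6 genes (y axis, from 0) in each library (points), DBA/2J left (n = 32) and C57BL/6J right (n = 31), with the mean and SD. Mpdz separates the strains almost fully, at 51.72 to 71.92 CPM in DBA/2J against 66.38 to 87.31 CPM in C57BL/6J, while the other genes overlap widely.

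Kcnj3, the GIRK1 subunit that pairs with the other GIRK subunits, was also lower in DBA/2J. It spanned 136.5 to 188.1 CPM with a median of 161.5 CPM in DBA/2J, against 148.9 to 197.5 CPM with a median of 172.9 CPM in C57BL/6J. Here the groups overlapped, with 24 of 32 DBA/2J libraries below the C57BL/6J median. The means were 161.9 ± 12.6 CPM in DBA/2J (SD, n = 32) and 174.1 ± 14.1 CPM in C57BL/6J (SD, n = 31), and the log2 difference was -0.10 (SE 0.03, edgeR adjusted p = 0.0015), or -6.76%. The direction held in all 8 combinations of sex, conditioning and drug, from -0.18 to -0.03. Kcnj3 spans 55435970 to 55598145 on the plus strand of chromosome 2 (ENSMUSG00000026824).

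Kcnj6, the GIRK2 subunit, stood at 30.57 to 61.52 CPM with a median of 52.67 CPM in DBA/2J and at 34.1 to 65.23 CPM with a median of 52.66 CPM in C57BL/6J. The medians were nearly identical and the ranges overlapped almost fully. The log2 difference was -0.02 (SE 0.05, 95% interval -0.11 to 0.08, edgeR adjusted p = 0.79). Kcnj6 spans 94748636 to 94997701 on the minus strand of chromosome 16 (ENSMUSG00000043301).

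Kcnj9, the GIRK3 subunit, stood at 57.27 to 130.9 CPM with a median of 75.19 CPM in DBA/2J and at 54.2 to 91.44 CPM with a median of 70.97 CPM in C57BL/6J. The groups overlapped, with 21 of 32 DBA/2J libraries above the C57BL/6J median and 4 above every C57BL/6J library. The means were 77.4 ± 13.6 CPM in DBA/2J (SD, n = 32) and 71.3 ± 8.95 CPM in C57BL/6J (SD, n = 31). The log2 difference of 0.12 (SE 0.05, 95% interval 0.01 to 0.22) missed the threshold after adjustment (edgeR adjusted p = 0.057). One library of DBA/2J males given ethanol and fear conditioned (DBA_M_FC_EtOH_312) held the highest Kcnj9 of all, 130.9 CPM, with the other 3 of its group at 75.04 to 80.59 CPM. Without it the log2 difference was 0.09 (adjusted p = 0.12). Kcnj9 lies at the edge of the threshold: it was called on gene sums of transcript counts (adjusted p = 0.026), with a round term (0.047), in the second round (0.023), with a choroid plexus term (0.011) and in 19 of 63 fits that left out 1 library. Its sign turned with the dentate granule (-0.069, adjusted p = 0.67) and oligodendrocyte terms (-0.023, adjusted p = 0.78). Kcnj9 spans 172320501 to 172329318 on the minus strand of chromosome 1 (ENSMUSG00000038026).

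Kcnmb4, the BK beta 4 subunit, was higher in DBA/2J. It spanned 25.71 to 40.31 CPM with a median of 32.83 CPM in DBA/2J, against 25.1 to 38.43 CPM with a median of 30.5 CPM in C57BL/6J. The ranges were almost the same, but 25 of 32 DBA/2J libraries lay above the C57BL/6J median. The means were 32.7 ± 3.35 CPM in DBA/2J (SD, n = 32) and 30.6 ± 3.34 CPM in C57BL/6J (SD, n = 31), and the log2 difference was 0.10 (SE 0.04, edgeR adjusted p = 0.025), or 6.99%. In all 8 combinations of sex, conditioning and drug the mean was higher in DBA/2J, by 0.01 to 0.21. The call is at the edge of the threshold: it was not made in either round alone (adjusted p = 0.14 and 0.21), nor on counts summed per title number, with 8 sums per strain (adjusted p = 0.13), and was lost when one C57BL/6J library was left out (B6_M_FC_SAL_322). Kcnmb4os2, an antisense gene that shares bases with Kcnmb4, stood at 3.08 CPM in DBA/2J and 2.85 CPM in C57BL/6J (log2 0.11, SE 0.05, adjusted p = 0.032), a call lost in 6 of 11 alternatives (adjusted p up to 0.6) and in 4 of 63 fits that left out 1 library. The counting's strand setting is not given in the sources used here, and how far reads of these genes were kept apart was not tested. Kcnmb4os1, the other antisense gene, stood at 0.114 CPM in DBA/2J and 0.0731 CPM in C57BL/6J. Gene counts over transcript counts were 0.9963 for Kcnmb4 and 1.011 for Mpdz, which shares no window with another gene. Kcnmb4 spans 116417861 to 116473878 on the minus strand of chromosome 10 (ENSMUSG00000054934).

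Kcnma1, the BK pore, did not pass the test. It stood at 210.24 to 312.01 CPM with a median of 251.46 CPM in DBA/2J and at 219.1 to 298.6 CPM with a median of 259.6 CPM in C57BL/6J. The ranges overlapped almost fully, and the log2 difference was -0.03 (SE 0.03, 95% interval -0.09 to 0.03, edgeR adjusted p = 0.46). Kcnma1 spans 23289431 to 24014491 on the minus strand of chromosome 14 (ENSMUSG00000063142).

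Markers of other cells moved with strain beside these values. Of the 5 oligodendrocyte markers, all 5 were lower in DBA/2J, with sums of 4579 to 12810 CPM in DBA/2J and 7437 to 15980 CPM in C57BL/6J. Of the 5 dentate granule markers, 4 were lower and Calb1 was higher in DBA/2J, with sums of 265.6 to 491.1 CPM in DBA/2J and 361.1 to 546.3 CPM in C57BL/6J. C1ql2, a synaptic protein of these cells, accounted for much of that, at 27.0 CPM in DBA/2J and 74.7 CPM in C57BL/6J. None of the 6 choroid plexus markers was called, though all 6 were higher in DBA/2J (median log2 0.37). The mean log2 level of the dentate granule markers was added to the fit as a term, a setting chosen after seeing the data. With it Mpdz stood at -0.23 (adjusted p = 0.00059), but Kcnj3 turned to 0.15 (adjusted p = 0.0082) and Kcnj6 to 0.42 (adjusted p = 8e-06). Kcnmb4 kept its sign but lost its call, at 0.07 (adjusted p = 0.57). With an oligodendrocyte term, chosen in the same way, Mpdz stood at -0.30 (adjusted p = 7.3e-12) and Kcnj3 at -0.18 (adjusted p = 2.8e-06), while Kcnmb4 went to -0.003 (adjusted p = 0.96) and Kcnma1 was called at -0.15 (adjusted p = 4e-05). Mpdz thus kept its direction and its call beside either marker term, and Kcnmb4 kept its call beside neither. The markers behind both terms themselves differ between the strains, with C1ql2 (log2 -1.46) and Tdo2 (-0.93) the farthest of the dentate granule markers. A term built from them takes up part of the strain difference, so these fits cannot tell strain apart from the markers. The build in the submitters' processing notes is GRCm38, the C57BL/6J genome, and the part of sequence differences between the strains in these counts was not tested.

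A minor transcript of Kcnj9 differed between the strains. Kcnj9-202 took 1.24% to 6.21% of the gene's transcript counts in DBA/2J, with a median of 3.35%, against 0 to 1.84% in C57BL/6J, with a median of 0.812%. In 28 of 32 DBA/2J libraries its share lay above every C57BL/6J library, and in 24 of 31 C57BL/6J libraries below every DBA/2J library. The mean share was 3.58% ± 1.29 in DBA/2J (SD, n = 32) and 0.868% ± 0.459 in C57BL/6J (SD, n = 31). The counts behind these shares are small, with a median of 76.64 estimated counts in DBA/2J and 16.82 in C57BL/6J. The separation was alike in both rounds, with mean shares of 3.45% and 3.71% in DBA/2J against 0.867% and 0.868% in C57BL/6J.

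Kcnj9-202 codes for the same protein as the main transcript Kcnj9-201, since their coding sequences were identical. It differs in the non-coding exon 2, which runs from 172327998 to 172328128 in Kcnj9-202 and from 172327998 to 172328098 in Kcnj9-201, 30 bases less. It also starts 36 bases later and has a last exon shorter by 1586 bases. At under 5% of its gene it stood below the minimum share of the usage test. With no minimum share, its log2 usage was 2.16 higher in DBA/2J than that of the gene's other transcripts, and Kcnj9 was the only one of the 6 genes called (limma adjusted p = 1.6e-15), where 28.6% of 12327 genes were called. The shares are estimates for transcripts that share most of their bases, and the part of strain sequence differences in them was not tested.

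With the minimum share, transcript usage could be tested in Kcnj3, Kcnj6 and Mpdz, and none was called for strain (adjusted p = 0.95, 0.35 and 0.42), while 25.7% of 9512 genes were. Kcnj3-202, which codes for 235 codons in place of 501 and so ends early in the channel, took 43.9% ± 5.69 of Kcnj3 counts in DBA/2J and 44.0% ± 5.68 in C57BL/6J (SD, n = 32 and n = 31). A short Kcnj3 form thus made up a large and nearly equal share in both strains. Mpdz-201, the main Mpdz transcript, took 63.8% in DBA/2J and 63.2% in C57BL/6J, so the lower Mpdz total in DBA/2J came with no called shift in its transcripts.

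**Figure D2:**
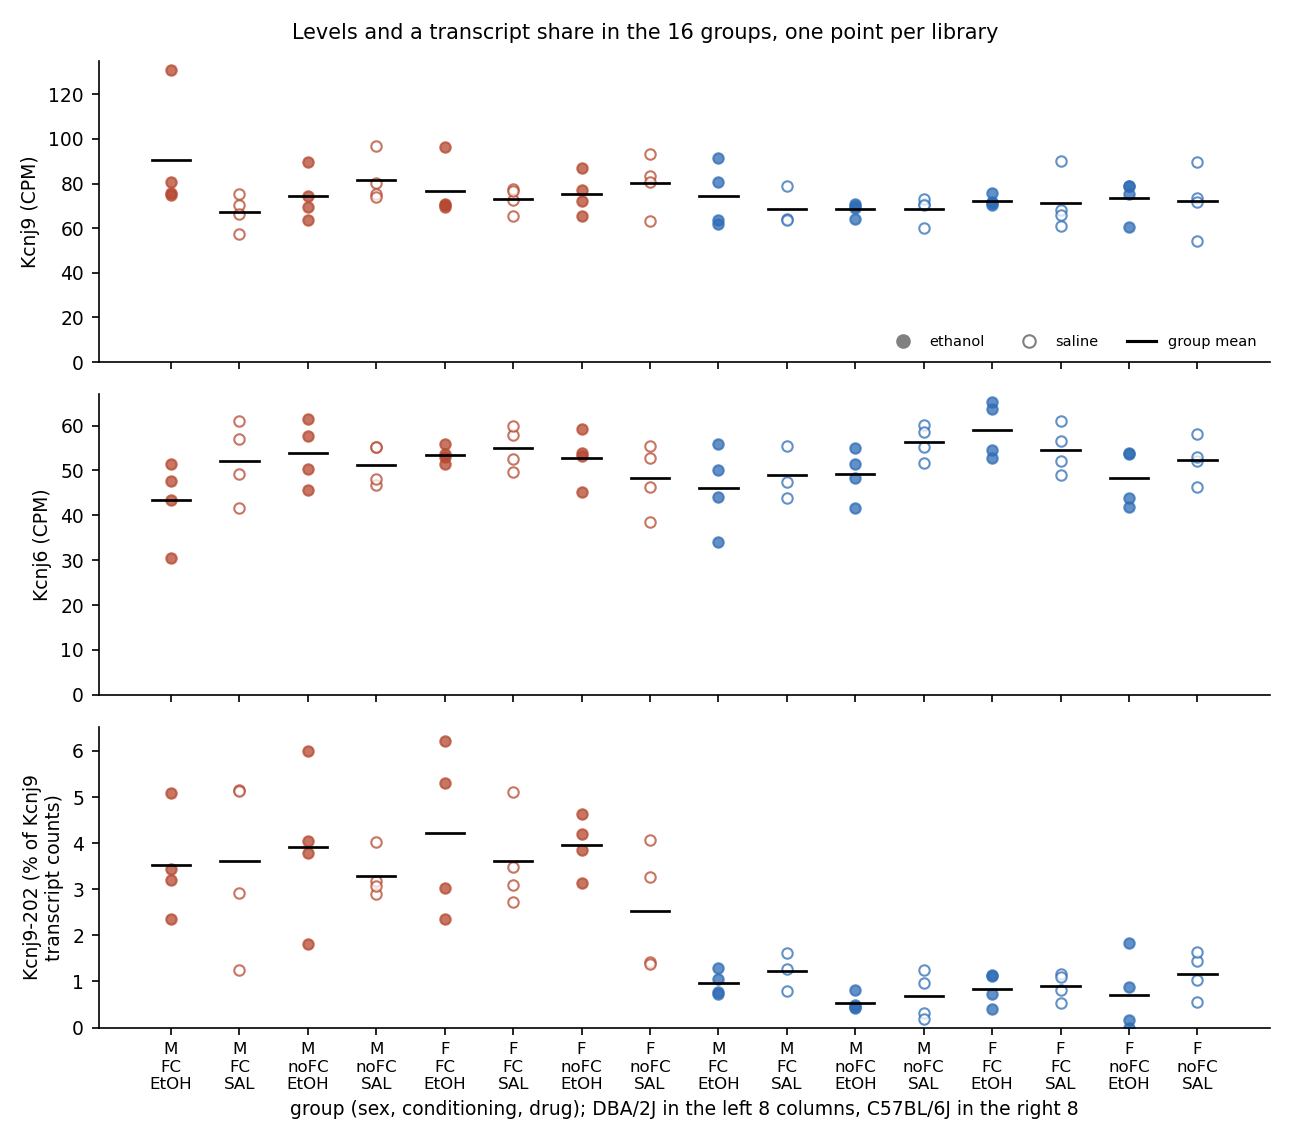
CPM of Kcnj9 and Kcnj6 and the share of Kcnj9-202 in percent (y axes, from 0) in the 16 groups, DBA/2J in the left 8 columns and C57BL/6J in the right 8, with 1 point per library. The Kcnj9-202 share is higher in DBA/2J in every combination of sex, conditioning and drug, and 1 DBA/2J library stands out at 130.9 CPM of Kcnj9.

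Most genes next to Kcnj9 differed between the strains, in both directions. Within 500 kb of Kcnj9, 23 protein-coding genes were tested, of which 8 were higher and 10 lower in DBA/2J, beside the 50.0% called among all genes, with a median log2 difference of 0.04. Copa, a coat protein of Golgi vesicles, stood at 173.7 CPM in DBA/2J and 216.2 CPM in C57BL/6J (log2 -0.32, SE 0.02, adjusted p = 1e-22). Kcnj10, the Kir4.1 channel of astrocytes and the nearest of these 3 genes, stood at 329.7 ± 29.3 CPM in DBA/2J (SD, n = 32) and 231.5 ± 19.0 CPM in C57BL/6J (SD, n = 31), a log2 difference of 0.51 (SE 0.03, adjusted p = 9.7e-21). Pigm, an enzyme of GPI anchor synthesis, was lower in DBA/2J (log2 -0.43, SE 0.03, adjusted p = 6.1e-20). Kcnj9 itself, between them, was not called. Within 500 kb of Mpdz only 2 protein-coding genes were tested. Tyrp1, a melanin enzyme whose RNA was close to absent at 0.446 CPM in DBA/2J and 0.222 CPM in C57BL/6J, was called higher (log2 1.07, SE 0.16, adjusted p = 2e-07), and Lurap1l missed the threshold (log2 0.10, adjusted p = 0.066) but passed it with a round term (adjusted p = 0.041), a choroid plexus term (0.04) and the dentate granule term (0.00099).

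**Figure D3:**
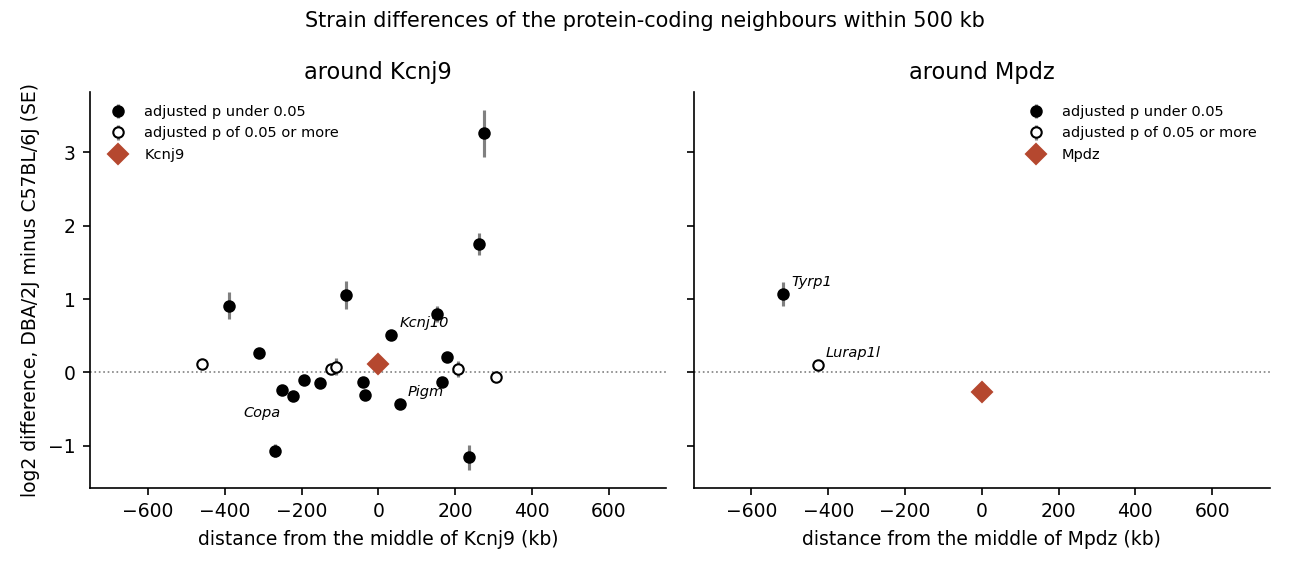
Strain log2 difference, DBA/2J minus C57BL/6J, with its SE (y axis) against the distance in kb from the middle of Kcnj9 and of Mpdz (x axis) for the protein-coding genes tested within 500 kb. Around Kcnj9, 8 neighbours are higher and 10 lower, with Kcnj10 at 0.51 and Copa at -0.32.

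The ethanol comparison asked what a single dose of 1.5 g/kg did to these genes, and none of the 6 was called (edgeR adjusted p from 0.87 to 0.99), where 0.546% of all genes were. Kcnj9 averaged 75.8 ± 13.2 CPM after ethanol (SD, n = 32) and 73.1 ± 10.3 CPM after saline (SD, n = 31), the largest positive difference at a log2 of 0.05. Kcnj6 averaged 50.7 CPM after ethanol and 52.5 CPM after saline, the largest negative one at -0.05. The 95% intervals of all 6 log2 differences lay within -0.14 and 0.16, or -9.41% and 11.6%, so larger changes of RNA lay outside the intervals. Within DBA/2J the log2 differences ran from -0.03 to 0.07 (0.295% of all genes called) and within C57BL/6J from -0.07 to 0.04 (0.0901% called), with no member called. The ethanol effect differed between the strains by 0.01 to 0.08, again with none called, where 0.0100% of all genes were. No member was called for a difference of the conditioning effect between the strains either, where 0 of 19974 genes were called by edgeR and by DESeq2 and 725 had an unadjusted p under 0.05.

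The conditioning comparison set fear-conditioned mice against those not conditioned, and none of the 6 genes was called (adjusted p = 1.0 for all), where 0.0200% of all genes were. The log2 differences ran from -0.07 to 0.02, within 95% intervals of -0.14 to 0.10, or -9.37% to 7.30%. Kcnmb4 was the farthest from 0, at 31.0 ± 3.58 CPM after FC (SD, n = 31) and 32.3 ± 3.30 CPM without (SD, n = 32), with an unadjusted p of 0.075 in edgeR's test. Within each strain 0 of 19974 genes were called by edgeR, with 786 genes in C57BL/6J and 670 in DBA/2J at an unadjusted p under 0.05, and DESeq2 called 6 and 0. Males and females did not differ by a called amount in any of the 6 genes (log2 from -0.08 to 0.04, adjusted p from 0.93 to 1.0), where 0.200% of all genes were called. All 6 choroid plexus markers were higher after FC (median log2 0.73) and in males (median log2 0.51), with none called. After FC all 6 were higher within DBA/2J (median log2 1.46), but 3 of 6 within C57BL/6J (median log2 0.01).

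The ethanol effect on Kcnj9 by conditioning state gave the largest value among these contrasts. Kcnj9 averaged 78.6 ± 16.6 CPM after ethanol with FC and 70.3 ± 8.41 CPM after saline with FC (SD, n = 16 and n = 15), against 73.0 ± 8.10 CPM after ethanol without FC and 75.7 ± 11.5 CPM after saline without FC (SD, n = 16 each). The difference between these effects was 0.21 on the log2 scale (SE 0.10, unadjusted p = 0.05) and was not called (edgeR adjusted p = 1.0). For this contrast 0 genes were called by edgeR and by DESeq2, with 592 at an unadjusted p under 0.05. Without the library at 130.9 CPM the value was 0.16.

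**Figure D4:**
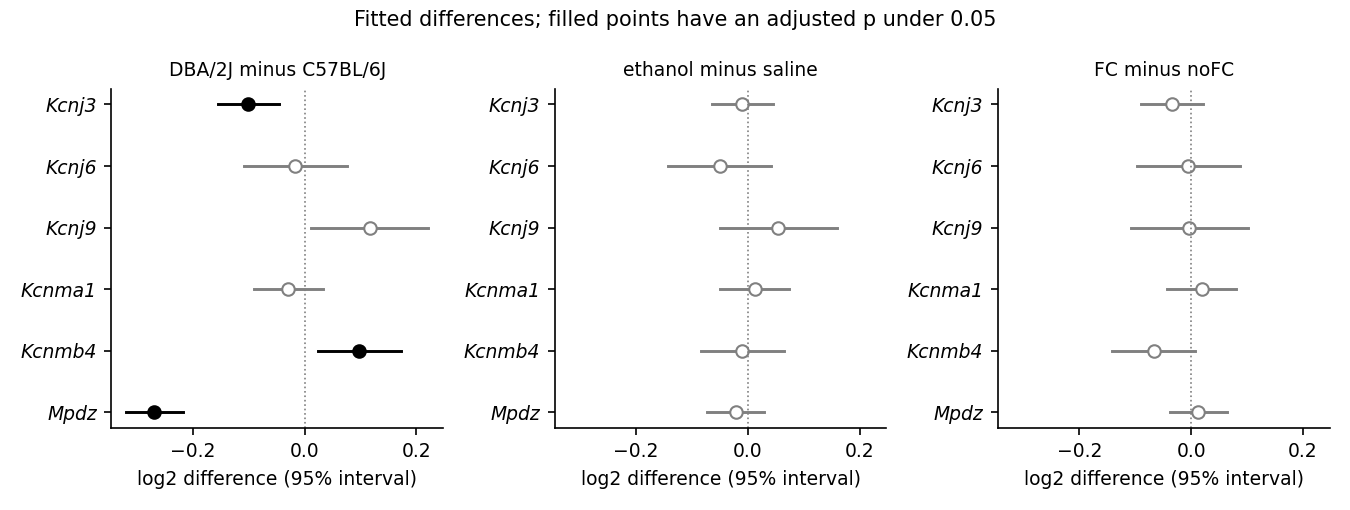
Fitted log2 differences of the 6 genes with 95% intervals (x axis) for strain, ethanol and conditioning, each as DBA/2J minus C57BL/6J, ethanol minus saline or FC minus noFC, with filled points for an adjusted p under 0.05. Only Mpdz, Kcnj3 and Kcnmb4 are filled, all for strain, at -0.27, -0.10 and 0.10.

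Kcnj2, the Kir2.1 inward rectifier that sets the resting potential, was the only gene of the related lists called outside the strain comparison. It was picked out after its values were seen. For ethanol 0.546% of all genes were called, so 1 call among the many genes listed shows nothing particular to the lists. Kcnj2 spanned 9.27 to 16.66 CPM with a median of 14.16 CPM after ethanol, against 11.92 to 20.14 CPM with a median of 15.9 CPM after saline. The ranges overlapped, but 29 of 32 ethanol libraries lay below the saline median. The means were 13.8 ± 1.70 CPM after ethanol (SD, n = 32) and 16.04 ± 2.04 CPM after saline (SD, n = 31), a log2 difference of -0.21 (SE 0.04, edgeR adjusted p = 0.0068). It was not called in either round alone, at -0.29 (adjusted p = 0.073) in the first and -0.14 (adjusted p = 0.64) in the second. It averaged 14.1 CPM after ethanol and 16.8 CPM after saline in DBA/2J, and 13.6 CPM after ethanol and 15.2 CPM after saline in C57BL/6J.

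Among the other inward rectifiers, 10 of 12 listed genes were tested, of which 3 were higher and 2 lower in DBA/2J (median log2 0.08). Kcnj11, the pore of the ATP-sensitive potassium channel, was lower at 28.2 CPM in DBA/2J and 41.2 CPM in C57BL/6J (log2 -0.54, SE 0.03, adjusted p = 3.5e-22). Kcnj14 (log2 0.48, adjusted p = 4.4e-07) and Kcnj16, a partner of Kcnj10 (log2 0.36, adjusted p = 1.4e-06), were higher beside Kcnj10. The level of Kcnj14 was low, at 1.06 CPM in DBA/2J and 0.756 CPM in C57BL/6J. Kcnj5 was also lower, at levels under 1 CPM. Of 14 other BK subunits and SK and Slo2 channels, 11 were tested, 2 higher and 1 lower (median 0.02). Kcnmb2, the inactivating BK beta subunit (0.22, adjusted p = 0.003), and Kcnn3, a small-conductance calcium-activated channel (0.16, adjusted p = 0.0086), were higher, Kcnu1, the sperm relative of BK (-0.21, adjusted p = 0.00018), was lower, and Kcnt2 stood at -0.08 (adjusted p = 0.14). These shares compare with 25.5% of all genes called higher and 24.5% called lower.

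All 20 receptors known to open GIRK channels were tested, 4 higher and 3 lower in DBA/2J (median 0.06). Oprm1, the mu opioid receptor, was called higher (log2 0.71, SE 0.13, adjusted p = 7.5e-06) but was close to absent. It stood at 0.578 CPM in DBA/2J and 0.361 CPM in C57BL/6J. Chrm4, a muscarinic receptor (0.44, adjusted p = 4.4e-10), and Htr1a, a serotonin receptor (0.21, adjusted p = 1.9e-06), were also higher. Sstr3, a somatostatin receptor, was lower (-0.22, adjusted p = 2e-05). Of 26 G proteins and GIRK regulators, 9 were higher and 5 lower (median 0.01). Rgs9, which speeds the shut-off of G proteins, stood at 6.86 CPM in DBA/2J and 12.2 CPM in C57BL/6J (-0.83, adjusted p = 6.5e-20). Gng3, a G protein gamma subunit, was higher (0.21), and Rgs6 (-0.28) and Gng2 (-0.16) were lower. The receptors and regulators thus differed in both directions, as all genes did, of which 25.5% were called higher and 24.5% lower.

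Of 8 calcium sources of BK channels, 2 were higher and 3 lower in DBA/2J (median 0.00). Itpr1, a calcium release channel, stood at 299 CPM in DBA/2J and 357 CPM in C57BL/6J (-0.26, adjusted p = 8.5e-10). The ryanodine receptors Ryr3 (0.27) and Ryr1 (0.26) were higher, and Cacna1a, the P/Q-type calcium channel, was lower (-0.12). Of 18 partners and relatives of Mpdz, 4 were higher and 4 lower (median 0.01). For both lists the share over all genes was 25.5% called higher and 24.5% called lower. The junction protein F11r, named after its value was seen, differed by as much as Mpdz (0.27, SE 0.11, adjusted p = 0.03). Lin7b and Htr2a, the serotonin 2A receptor, were higher (0.19 each), and Mpp5 (-0.11) and Tjp1 (-0.07), a tight junction scaffold, were lower. The dentate granule term, itself lower in DBA/2J, was chosen after seeing the data. With it Gng2 turned to 0.12 (adjusted p = 0.044), and 10 calls among the named genes of the lists were lost. Of these, Kcnu1 (-0.20), Kcnmb2 (0.189) and Kcnj14 (0.395) moved little in size, Oprm1 (0.416), Chrm4 (0.271), Kcnn3 (0.089) and Gng3 (0.048) came closer to 0, and Kcnj16 (-0.01), Cacna1a (0.078) and Tjp1 (0.011) turned. With the oligodendrocyte term the calls of Kcnmb2 (0.059), Htr2a (0.088), Mpp5 (-0.048) and Tjp1 (-0.032) were lost and Kcnt2 was called (-0.174, adjusted p = 0.013). The first round alone did not call Kcnmb2 (adjusted p = 0.11), Mpp5 (0.099) or Cacna1a (0.17), nor the second Kcnn3 (0.057) or Tjp1 (0.11).

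Between libraries of one group, several of the genes varied together. With group means removed, Pearson's r over 63 libraries was called for 6 of 15 pairs (permutation p adjusted over 15 pairs). The share called among pairs of all genes was not computed, so this count shows nothing particular to these genes. Kcnj9 and Kcnma1 varied together most closely (r = 0.65, rho = 0.65, adjusted p = 7.5e-05), and r was 0.74 in the first and 0.59 in the second round. Kcnj3 and Kcnj6 followed (r = 0.58, rho = 0.61, adjusted p = 7.5e-05, rounds 0.60 and 0.52), then Kcnj9 and Kcnmb4 (r = 0.57, rho = 0.56, adjusted p = 7.5e-05, rounds 0.62 and 0.54). Without the 2 farthest libraries these values were 0.58, 0.56 and 0.52. Kcnj3 and Kcnma1 were as close over all libraries (r = 0.55, rho = 0.57, adjusted p = 7.5e-05) but differed between the rounds, at 0.33 in the first (adjusted p = 0.15) and 0.80 in the second. The permutation p behind each of these 4 pairs was 2e-05, the smallest the permutations can give. Kcnma1 was also called with Kcnmb4 (r = 0.40, rho = 0.36, adjusted p = 0.0052) and with Mpdz (r = 0.30, rho = 0.30, adjusted p = 0.039), and neither was called in the second round alone (0.30 and 0.22). Kcnma1 thus took part in 4 of the 6 pairs called by r. By rho, further pairs passed the threshold narrowly in the same permutations. They were Kcnmb4 with Mpdz (rho = -0.29, adjusted p = 0.041), Kcnj3 with Kcnmb4 (rho = 0.27, adjusted p = 0.049) and Kcnj6 with Kcnma1 (rho = 0.28, adjusted p = 0.049). Kcnj3 and Kcnj9, whose subunits join in 1 channel, were not called (r = 0.11, rho = 0.20, adjusted p = 0.47), nor was Kcnj6 with Kcnj9 called (r = -0.27, rho = -0.12, adjusted p = 0.067).

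**Figure D5:**
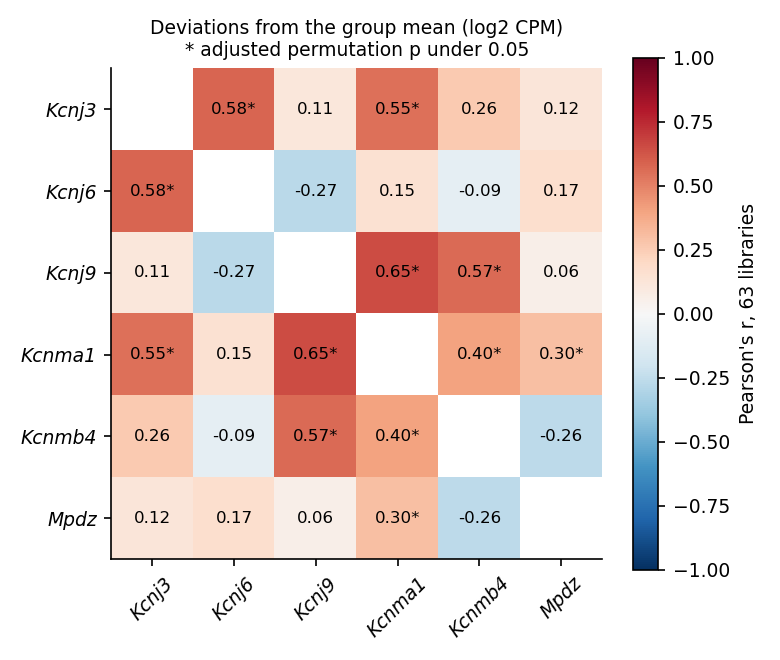
Pearson's r between each pair of the 6 genes over 63 libraries, from deviations of log2 CPM from the group mean (colour and printed value), with a star for an adjusted permutation p under 0.05. Kcnj9 with Kcnma1 (0.65) and Kcnj3 with Kcnj6 (0.58) are the highest, and the stars mark 6 of 15 pairs.

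The genes also varied with markers of hippocampal fields and with markers of other cells and tissue. The mean log2 levels of 13 marker lists were set against the 6 genes in 78 relations, group means removed. The permutations were of the same kind, so these p values are too small as well. Kcnj3 and Kcnj6 varied with dentate granule markers (r = 0.68 and 0.69, rho = 0.71 and 0.67, adjusted permutation p = 9.7e-05 each) and with CA1 markers (r = 0.62 and 0.61, rho = 0.61 and 0.51, adjusted p = 9.7e-05 each). Kcnj9 varied against CA3 markers (r = -0.78, rho = -0.74, adjusted p = 9.7e-05) and CA2 markers (r = -0.77, rho = -0.71, adjusted p = 9.7e-05), and Kcnma1 did likewise (r = -0.65 and -0.68, rho = -0.64 and -0.69, adjusted p = 9.7e-05 each). For Kcnj9 and CA3 markers r was -0.80 in the first and -0.69 in the second round, and -0.74 without the 2 farthest libraries. For Kcnj6 and dentate granule markers the values were 0.76, 0.55 and 0.65. Such relations were not particular to hippocampal fields. Kcnma1 ran against oligodendrocyte markers (r = -0.68), and Kcnj9 varied with interneuron markers (r = 0.66). Kcnj3 and Kcnj6 ran against striatum markers (r = -0.57 and -0.54, adjusted permutation p = 9.7e-05 for each of these relations). Mpdz was related to none of the 13 marker lists by a called amount, with r between -0.23 and 0.16 (the lowest adjusted p of an r was 0.12). Choroid plexus markers ran against Kcnma1 (r = -0.67), Kcnj3 (-0.56), Kcnj9 and Kcnmb4 (-0.49 each), and with their mean level regressed out r was 0.50 for Kcnj9 with Kcnma1, 0.56 for Kcnj3 with Kcnj6, 0.44 for Kcnj9 with Kcnmb4 and 0.54 for Kcnma1 with Mpdz. The calls of Kcnj3 with Kcnma1 (r = 0.29, adjusted p = 0.057) and of Kcnma1 with Kcnmb4 (r = 0.10, adjusted p = 0.47) were lost. Kcnj6 with Kcnj9 went from r = -0.27 to r = -0.45, and 1 alternative called this pair. The part of the dissection's make-up in these relations was not tested further.

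The genes most like each of the 6 across the 63 libraries, by Pearson's r of the same deviations, were sought over 19974 genes. Symbols made of Gm and digits, symbols ending in Rik, genes without a symbol and the other members were left out of the ranking. Among the nearest to Kcnj3 were Abi2 and Stxbp5 (r = 0.88 each), and the nearest to Kcnj6 were Sphkap (0.89), Gria1 (0.88) and Add2 (0.87). The nearest to Kcnj9 were Arpp21 (0.92), Rap1gap2 and Apba1 (0.91 each). Map2 (0.86), Myo5a and Unc80 (0.85 each) were nearest to Kcnma1, and Rundc3a (0.83) and Cdk5r2 (0.81) were among the nearest to Kcnmb4. None of the genes ranked followed Mpdz as closely: Fip1l1 (0.67), Ptprk and Lrp8 (0.64 each) came nearest.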

How the data were processed

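Messenger RNA libraries were read from 1 end at 75 bases, per the labels' protocols. The authors deposited whole-number read counts per gene and estimated counts per transcript. The build was GRCm38 and the tools were DESeq2, Salmon, featureCounts, HISAT2 and fastp, without versions, per the submitters' processing notes. Each column was matched to its library by title. The strand setting of the counting is not given in the sources used here.

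Genes were kept with filterByExpr (minimum count 10), which left 19974 of 55401 genes and 99.95% of the counts, with TMM factors of 0.96 to 1.05. All 63 libraries entered 1 edgeR 4.0.16 quasi-likelihood fit with a coefficient for each of 16 groups (two-sided). Benjamini-Hochberg adjustment ran over all genes tested, and a gene was called under 0.05. Contrasts averaged the other factors with equal weight. The submitters' notes name DESeq2 without a design, so it served as an alternative (1.42.0). Transcript usage came from voom and diffSplice in limma 3.58.1 on the deposited estimated counts, rounded, for transcripts with at least 10 counts in 3 libraries and 5% of their gene. RPKM used the exon length in the deposited table and TPM the transcript counts and lengths. Correlations used log2 CPM (prior count 2) minus the group mean and 100000 permutations. These ran over all 63 libraries, not within groups, with no allowance for the 16 means removed. Sequences and positions were read from GENCODE M21. Both tests were tried on simulated data with known changes. In the simulation for strain few genes changed, whereas 50.0% were called here, and its libraries were drawn independently. It therefore does not gauge the strain calls above.

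The members, gene lists and tests were chosen with earlier results of these data known. The text names all 6 members, up to 4 genes of each list with the smallest strain p, the 3 genes most like each member (some are not reported here), and the 3 neighbours of Kcnj9 and Mpdz with the smallest strain p. Other named genes (Kcnj2, Kcnj5, Kcnmb4os2, markers) were picked after their values were seen. Title numbers did not meet the rule for pairing: of 93 pairs of libraries of one number, 32 had deviations correlated over 0.1 (median 0.04), against 73 of 279 pairs of other numbers (median -0.01). Alternatives were other tools, scalings and filters, transcript sums, round and marker terms, title numbers as blocks, each round or strain alone, and each library left out.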

Additional observations from a re-analysis of the deposited data

Results flagged for a closer look

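A gap test (Dixon's, at the 95% level) over each group of 4 libraries marked 6 of 90 combinations of group and gene, where chance marks about 1 in 20. In DBA/2J females given ethanol and fear conditioned, library DBA_F_FC_EtOH_325 was the highest for Kcnj3, at 183.1 CPM against 156.6 to 160.3 CPM in the other 3, and for Kcnj9, at 96.48 CPM against 69.62 to 70.69 CPM. In DBA/2J males given ethanol and fear conditioned, library DBA_M_FC_EtOH_312 was the highest for Kcnj9, at 130.9 CPM against 75.04 to 80.59 CPM, and the same library held the highest Kcnma1 (312.01 CPM) and the lowest Kcnj6 (30.57 CPM) of all 63. In DBA/2J males given saline and not conditioned, library DBA_M_noFC_SAL_316 was the highest for Kcnj3, at 178.4 CPM against 164.3 to 166.2 CPM, and library DBA_M_noFC_SAL_324 the highest for Mpdz, at 68.99 CPM against 62.38 to 62.85 CPM. In C57BL/6J males given saline and not conditioned, library B6_M_noFC_SAL_318 was the lowest for Kcnma1, at 240.0 CPM against 258.5 to 260.3 CPM.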

How the results depend on the processing

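Mpdz stayed lower in DBA/2J and called under all 12 alternatives and all 63 fits that left out 1 library (log2 -0.28 to -0.26). Kcnj3 did so in 11 of 12 and in all 63 (-0.11 to -0.09), and turned to 0.146 with the dentate granule marker term. Kcnmb4 missed the threshold in the first round (0.101), in the second round (0.09), with the dentate granule term (0.065) and on counts summed per title number (0.086), and stood at -0.003 with the oligodendrocyte term. Leaving out 1 library gave 0.088 to 0.111, with the call lost without B6_M_FC_SAL_322. Kcnj9 passed the threshold on gene sums of transcript counts (0.139), with a round term (0.115), in the second round (0.143) and with a choroid plexus term (0.134), and stood at -0.069 and -0.023 with the dentate granule and oligodendrocyte terms. Leaving out 1 library gave it 0.088 to 0.133, called in 19 of 63. Kcnj6 stood at 0.031 in the first round and 0.424 with the dentate granule term, and at -0.03 to 0.001 with 1 library left out, positive without DBA_M_FC_EtOH_312. Kcnma1 stood at 0.015 with the dentate granule term and was called with the oligodendrocyte term (-0.147). Both marker terms were chosen after seeing the data and themselves differ between the strains, and the cause of these shifts was not tested.

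For ethanol and conditioning, no alternative called a member, and these small values changed sign. For ethanol, Kcnj3 was at 0.043 in the second round and at 0.003 and 0.004 with the dentate granule and oligodendrocyte terms, Kcnj6 at 0.044 in the second round, and Kcnmb4 at 0.01 with the oligodendrocyte term. In the first round Kcnj9 was at -0.032, Kcnma1 at -0.038 and Mpdz at 0.002. With 1 library left out, Kcnma1 ran from 0 to 0.022 and Kcnmb4 from -0.021 to 0.003. For conditioning, Kcnj6 was at 0.011 in the second round, 0.014 with the choroid plexus term and 0.048 with the dentate granule term, Kcnj9 at 0.028 in the first round and 0.034 with the choroid plexus term, and Kcnma1 at -0.017 in the second round and -0.005 with the oligodendrocyte term. With 1 library left out, Kcnj6 ran from -0.018 to 0.011 and Kcnj9 from -0.034 to 0.012. Kcnj9's difference of ethanol effects by conditioning ran from 0.157 to 0.245.

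The count of genes called for strain was 6502 with the dentate granule term and 9827 to 10136 with 1 library left out, against 9986. For sex it was 25 on transcript sums, 17 in the first and 23 in the second round and 24 on sums per title number, against 40. For ethanol it was 66 without the filter, 11 in the first and 34 in the second round, against 109. In C57BL/6J it was 0 in the first and 1 in the second round, against 18, and 10 to 20 with 1 library left out, the lowest without B6_F_FC_SAL_319. In DBA/2J it was 110 by DESeq2, 33 without the filter, 15 in the second round and 27 with the strain fitted alone, against 59. For conditioning it was 8 by DESeq2, 0 in each round and 7 with the choroid plexus term, against 4. In C57BL/6J it was 6 by DESeq2, 2 with a round term, 2 with the choroid plexus term, 1 with the dentate granule term and 1 with the strain fitted alone, against 0. It ran from 0 to 4 with 1 library left out in C57BL/6J and from 0 to 1 in DBA/2J. For ethanol by strain it was 6 by DESeq2, 0 in each round and 1 with the oligodendrocyte term, against 2, and 0 to 5 with 1 library left out.

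Title numbers did not meet the rule for pairing, which asks every pair to correlate over 0.1. Still, 42.9% of libraries (27 of 63) correlated best with one of their own number, where 93 of the pairs compared shared a number and 279 did not, a hint from the data that libraries of one number are alike. A fit with the number as a replicate block called 109 genes for ethanol in DBA/2J and 4 for ethanol by strain, and no member in any contrast. Each number belongs to 1 strain and 1 sex, so strain and sex were refitted with the number as a random block in limma (estimated correlation 0.091) and on counts summed per number, both chosen after seeing the data. Kcnmb4 stood at 0.098 (adjusted p = 0.049) with the random block and at 0.086 (adjusted p = 0.13) on the sums, and the other 5 members kept their side of the threshold. Genes with called transcript usage numbered 1546 for strain in the first round, against 2443. For ethanol they numbered 446 with no minimum share, 98 at a minimum of 10%, 81 in the first and 89 in the second round, against 179. For conditioning they numbered 294, 19 and 26 (first round), against 54. Of the 15 pairs, 10 were called without the 2 farthest libraries, against 6. Pairs that turned sign were Kcnj3 with Kcnj9 (-0.22) and with Kcnmb4 (-0.02) without choroid plexus signal, Kcnj6 with Kcnma1 (-0.12) in the first round, and in the second round Kcnj6 with Kcnmb4 (0.11) and Kcnj9 with Mpdz (-0.09). Of 29 genes of lists and neighbours, 29 of 347 alternative values changed their side of the threshold, and with the dentate granule term Kcnj16 (-0.01), Kcnt2 (0.191), Gng2 (0.123), Cacna1a (0.078) and Tjp1 (0.011) turned.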
